A study of Mus musculus with 12 samples.

Results

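The expression of 48 genes that repair DNA crosslinks and other DNA damage was followed in the Myc-CaP prostate cancer line, a mouse line from an FVB male that overexpresses Myc. The genes were chosen by name, and all 48 were found among the 55216 gene symbols of the count table and passed the filter on low counts that left 13177 genes for testing. They were read in 8 subgroups: 9 genes of the Fanconi core complex and its partners, 3 genes around Fancd2 and Fanci, 12 genes of homologous recombination, 4 genes tied to structure-specific nucleases, 9 genes of nucleotide excision repair, 3 of mismatch repair, 4 of translesion synthesis and 4 checkpoint kinases. The 12 libraries formed 6 groups of 2, all harvested at 48 h. Ctrl cells received neither agent, Oxali cells received 2 μM oxaliplatin (a platinum drug that crosslinks DNA), and IFN200 and IFN2000 cells received 200 or 2000 pg of interferon γ per mL (IFNγ, the volume is not in the labels but in the description of the experiment). Combo200 and Combo2000 cells received oxaliplatin together with the matching IFNγ dose. All groups were the same parental line, and per the study the drug dose was one that killed few cells.

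When a platinum adduct ties both DNA strands together, replication forks stall at it. The Fanconi core complex then attaches ubiquitin to the Fancd2-Fanci pair, which brings in nucleases that cut the crosslink out of one strand. Translesion polymerases copy past the remaining lesion, homologous recombination mends the broken strand, and nucleotide excision repair removes what is left and also clears the more frequent adducts within one strand. The checkpoint kinases Atm and Atr, with Chek1 and Chek2 below them, hold the cell cycle meanwhile.

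Groups follow the sample titles, because for the 6 libraries of single treatments the agent label names a different treatment than the title does. If the agent labels were right, the names IFN200, IFN2000 and Oxali would be exchanged below, while Ctrl, Combo200 and Combo2000 would keep theirs. The summed level of 18 p53 targets, genes activated by DNA damage, was 972 to 998 CPM (counts scaled to one total per library, with TMM factors) in the 6 libraries titled with oxaliplatin and 894 to 919 in the other 6, and Cdkn1a, a cell cycle inhibitor among them, had 1008 to 1339 counts against 432 to 683. The list did not move as one, since of 16 targets tested 8 were higher and 6 lower in Oxali against Ctrl, among them the death genes Bax (-0.88, adjusted p = 1.23e-16) and Bbc3 (-0.55, adjusted p = 0.0126). Against Ctrl, 8913 genes were called in the libraries titled Oxali, 18 in IFN200, 2339 in IFN2000 and 9045 in Combo200, whose title and agent label both give oxaliplatin. The summed level of 10 IFNγ targets was in Ctrl at 47.9 and 48.2 CPM, in IFN200 at 62.7 and 67.3, in IFN2000 at 196 and 201, and with oxaliplatin at 125 and 129 in Oxali, at 566 and 577 in Combo200 and at 1360.0 and 1380.0 in Combo2000. Library totals ran from 18749975 to 25931516 counts. Of the markers of the labelled prostate epithelial line, Myc was read with 2268 to 3835 counts and Krt8 with 353 to 628, whereas Krt18 and Cdh1 did not exceed 6 counts and Epcam was at 0 in every library. IFN2000 replicate 2 held 64 counts of the leukocyte gene Ptprc and 33 of Cd4, against at most 2 and 1 in any other library, and IFN200 replicate 1 held 63 counts of the heart muscle gene Actc1, against at most 2 elsewhere. Of 4 macrophage markers, Adgre1 was at 0 in every library, Csf1r was at 0 without oxaliplatin and at 8 to 19 counts with it, Lyz2 was at up to 1 and at 3 to 11 counts, and Cd68 overlapped (10 to 25 and 20 to 32 counts). The fibroblast gene Pdgfra (221 to 371 counts without and 483 to 632 with oxaliplatin) and the heart gene Tnnt2 (15 to 47 and 68 to 125) were also higher with it. Of the other fibroblast markers, Col3a1 and Dcn stayed at 0 to 2 counts, and Col1a1 had 16 in Combo2000 replicate 2 and 0 to 3 elsewhere. The other heart markers Myh6, Actc1 and Myl2 were at 0 to 4 with oxaliplatin. The part of these genes in the results was not tested. The labels do not say whether replicates are separate cultures, so the p-values below measure the spread between libraries, which may be technical.

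Promoters of the genes that rose and fell most were read to set them side by side. RefSeq sequences on GRCm38.p6 were matched for 42 of the 48 genes, and the 250 bases before the start were searched on both strands for 3 motifs known from cell cycle promoters. Shown are the 2 largest rises and the 2 largest falls with Oxali among genes with a single start and a mean of at least 100 counts, 5′ to 3′ in the direction of the gene, with motif matches in capitals.
Dclre1a, chr19:56548223-56548472, minus strand: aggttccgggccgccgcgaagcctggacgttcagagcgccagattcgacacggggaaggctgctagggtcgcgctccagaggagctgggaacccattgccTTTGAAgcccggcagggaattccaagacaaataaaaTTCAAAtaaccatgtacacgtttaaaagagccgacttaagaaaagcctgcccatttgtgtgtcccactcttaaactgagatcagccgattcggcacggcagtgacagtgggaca
Fancg, chr4:43010302-43010551, minus strand: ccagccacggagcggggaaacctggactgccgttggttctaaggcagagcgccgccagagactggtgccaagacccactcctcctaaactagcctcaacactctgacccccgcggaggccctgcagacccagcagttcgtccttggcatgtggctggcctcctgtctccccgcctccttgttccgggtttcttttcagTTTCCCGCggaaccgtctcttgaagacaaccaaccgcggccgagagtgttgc
Ercc8, chr13:108158488-108158737, plus strand: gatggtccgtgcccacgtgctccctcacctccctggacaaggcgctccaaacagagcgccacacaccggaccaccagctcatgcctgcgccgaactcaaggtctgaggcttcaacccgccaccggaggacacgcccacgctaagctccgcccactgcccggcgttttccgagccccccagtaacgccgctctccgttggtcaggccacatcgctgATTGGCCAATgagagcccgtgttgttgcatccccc
Ercc5, chr1:44147494-44147743, plus strand: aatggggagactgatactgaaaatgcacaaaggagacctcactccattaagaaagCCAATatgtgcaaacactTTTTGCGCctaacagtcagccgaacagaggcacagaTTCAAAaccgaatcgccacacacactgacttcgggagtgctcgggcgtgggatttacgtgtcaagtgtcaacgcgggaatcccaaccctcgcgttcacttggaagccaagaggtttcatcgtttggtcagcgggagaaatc
The capitals mark TTTGAA (the CHR motif) in Dclre1a, TTTNNCGC (an E2F-type motif) in Fancg, CCAAT in Ercc8, and all 3 in Ercc5, each as read on either strand and none overlapping another. Starts here are those of RefSeq. By the GENCODE annotation used for gene positions (chr4:43002343-43010506), most of the Fancg stretch, with its match, lies inside the gene. The last few bases of the Ercc8 stretch do so too. The E2F-type motif was present in 7 of the 42 promoters, against 4.28% of 32851 promoters of the table. It stood in 3 of 12 genes that were higher with Oxali, 2 of 14 that were lower and 2 of 16 that were not called. CCAAT was present in 25 of 42, against 33.8% of all, and stood in 6 of 12, 11 of 14 and 8 of 16 of these classes. TTTGAA was present in 3 of 42, against 16.0% of all. The background of all promoters includes genes that did not pass the filter on low counts, whereas all 42 genes did, so the sets are not alike in expression. None of the 3 motifs was tested against the direction of change, and a match is a run of letters, not a binding site.

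To learn how the repair genes responded to the drug alone, Oxali was compared with Ctrl. Oxali raised 13 of the 48 genes and lowered 17, at a Benjamini-Hochberg adjusted p under 0.05 over all genes tested (edgeR quasi-likelihood test). Over all 13177 genes, 34.8% were called higher and 32.8% lower, so the share of repair genes called, 62.5%, was near the background of 67.6%. The changes were small. No repair gene changed 2-fold, whereas 1817 of all genes did, and the median absolute log2 fold change was 0.20 for the repair genes against 0.39 for all genes. The signed median was 0.04 against 0.02. The split between higher and lower depended on the scaling, with 17 higher and 12 lower under upper-quartile scaling and 9 and 21 after a correction for transcript length and GC content. Upper-quartile scaling also moved the median of all genes from 0.02 to 0.07, and the length and GC correction moved it to -0.11. With 1 library left out at a time, 24 to 30 of the 30 calls were kept, the fewest without Ctrl replicate 1 (Brca2, Fancf, Fancl, Fancm, Mad2l2 and Xrcc3 lost). Without Ctrl replicate 2 or an Oxali library, Fance, Polh, Usp1, Fancf, Fancl, Fancm, Brca2, Mad2l2 and Xrcc3 were each lost at least once. DESeq2 kept 21 of the 30 and lost Fance, Fancf, Fancl, Fancm, Mad2l2, Polh, Rev1, Usp1 and Xrcc3. Upper-quartile scaling lost Fance, Fancl, Polh, Rev1 and Usp1, and the length and GC correction lost Brca1, Fancf, Fancm and Mad2l2.

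**Figure D1:**
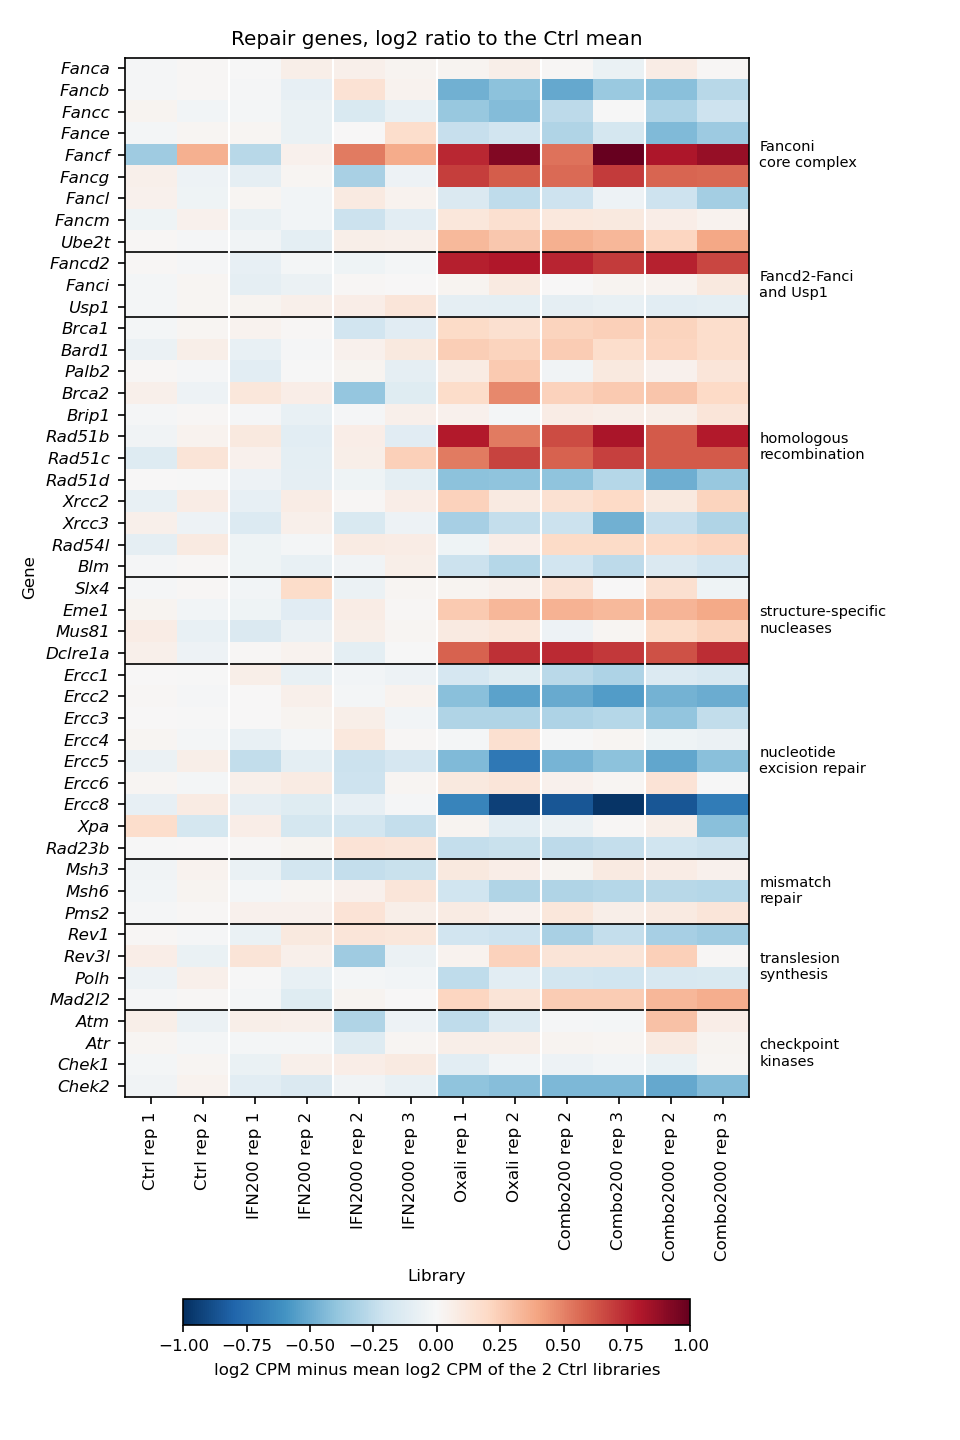
Expression of the 48 repair genes (rows, by subgroup) in the 12 libraries (columns), as log2 CPM minus the mean log2 CPM of the 2 Ctrl libraries, red above and blue below. The 6 libraries with oxaliplatin differ from the other 6 in rows such as Fancd2, Fancg, Rad51b, Rad51c, Dclre1a, Ercc8, Ercc2 and Chek2, while most other rows stay pale.

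The smallest p that an exact two-sided permutation test of 2 against 2 libraries can give is 0.333, and the calls therefore draw on the spread that edgeR shares across genes and groups. As a reading without a model, all 6 libraries with oxaliplatin lay above all 6 without it for 13 repair genes and below for 17, and the 2 sets overlapped for 18. Over all genes tested, 31.8% lay above and 28.9% below. Because RNA came from bulk cultures, fewer cells expressing a gene and less RNA per cell cannot be told apart in any value below.

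In the Fanconi core complex, 4 of 9 genes rose with Oxali (Fancf, Fancg, Ube2t and Fancm) and 4 fell (Fancb, Fancc, Fance and Fancl), with only Fanca, at a log2 fold change of 0.04, not called. Over all genes 34.8% were higher and 32.8% lower, so movement in both directions was also common outside the complex. The same shares are the background of the Oxali counts in the other subgroups below. Fancg (GRCm38 chr4:43002343-43010506), a scaffold protein of the complex, was measured in Ctrl at 17.3 and 16.2 CPM, in IFN200 at 15.7 and 16.9 and in IFN2000 at 13.3 and 16.1, and with oxaliplatin at 27.0 and 25.5 in Oxali, at 24.8 and 27.2 in Combo200 and at 25.0 and 25.0 in Combo2000. Every library with oxaliplatin lay above every library without it, and the log2 fold change of Oxali against Ctrl was 0.65 (SE 0.08, adjusted p = 3.04e-08). Fancb (chrX:164980592-164997272), which forms the catalytic module with the ubiquitin ligase Fancl, was measured in Ctrl at 33.7 and 34.3 CPM, in IFN200 at 33.7 and 32.1 and in IFN2000 at 37.6 and 34.8, and with oxaliplatin at 24.4 and 25.6 in Oxali, at 23.9 and 26.3 in Combo200 and at 25.4 and 28.1 in Combo2000. Its 6 libraries with oxaliplatin all lay below the 6 without, at a log2 change of -0.45 (SE 0.07, adjusted p = 1.32e-06). Fancl itself, whose exons overlap those of Vrk2 on the opposite strand, fell by 0.20 on the log2 scale (SE 0.07, adjusted p = 0.0112), but Combo200 against Ctrl gave -0.12 and was not called.

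Ube2t, the ubiquitin-conjugating enzyme that works with Fancl, rose by 0.30 (log2; SE 0.08, adjusted p = 0.00122), with 0.35 and 0.30 in Combo200 and Combo2000 against Ctrl. Fancf (chr7:51860577-51862267), an adaptor of the complex, had the largest log2 fold change of the 48 genes, 0.84, but also the largest SE, 0.32 (adjusted p = 0.0192). It was the lowest of the 48 genes per length and had only 11 to 44 counts in a library, in Ctrl at 0.612 and 1.06 CPM, in IFN200 at 0.651 and 0.84 and in IFN2000 at 1.20 and 1.07, and with oxaliplatin at 1.43 and 1.62 in Oxali, at 1.22 and 1.70 in Combo200 and at 1.48 and 1.55 in Combo2000. The highest library without oxaliplatin, at 1.20 CPM, came close to the lowest with it, at 1.22. Its exons overlap those of Gas2 on the opposite strand, and in Combo2000 against IFN2000 the change was 0.41 and not called. Fancm, the translocase that anchors the complex to DNA, rose by 0.14 (adjusted p = 0.0292), while Fancc fell by 0.41 and Fance by 0.21. The fall of Fancc was smaller with IFNγ present, -0.08 in Combo200 against IFN200 and -0.15 in Combo2000 against IFN2000. Its libraries overlapped, at 7.54 to 10.2 CPM with oxaliplatin and 9.16 to 10.4 without. The exons of Fancm, Fancc and Fance overlap those of other genes on the opposite strand.

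Fancd2, the protein that receives the ubiquitin, showed the clearest rise. Fancd2 (chr6:113531682-113597017) was measured in Ctrl at 48.0 and 47.1 CPM, in IFN200 at 44.8 and 46.8 and in IFN2000 at 46.3 and 46.8, and with oxaliplatin at 81.6 and 83.0 in Oxali, at 80.6 and 77.3 in Combo200 and at 81.0 and 75.6 in Combo2000. The libraries fell into separate ranges, 44.8 to 48.0 CPM without oxaliplatin and 75.6 to 83.0 with it. The log2 fold change of Oxali against Ctrl was 0.79 (SE 0.05, adjusted p = 1.62e-15), and it was 0.73 in Combo200 and 0.72 in Combo2000 against Ctrl. The exons of Fancd2 overlap those of Fancd2os on the opposite strand. Fanci, which is ubiquitinated as the partner of Fancd2, stayed at 37.0 to 42.2 CPM in all 12 libraries, with a log2 change of 0.06 (SE 0.06, adjusted p = 0.346).

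Since both counts come from one library, their ratio does not depend on scaling. The ratio of Fancd2 to Fanci counts was 1.23 and 1.18 in Ctrl, 1.21 and 1.24 in IFN200 and 1.16 and 1.18 in IFN2000. Oxali gave 2.02 and 1.97, Combo200 gave 2.03 and 1.92 and Combo2000 gave 2.00 and 1.79, so the ranges with and without oxaliplatin did not overlap. How often the ratios of other gene pairs separate in this way was not computed, for this pair or for those below. Single genes often did, with 31.8% of all genes tested above and 28.9% below in all libraries with oxaliplatin. Usp1 (chr4:98923810-98935543), which takes the ubiquitin off Fancd2 again, was measured in Ctrl at 200.0 and 205 CPM, in IFN200 at 207 and 210.0 and in IFN2000 at 212 and 220.0, and with oxaliplatin at 190.0 and 190.0 in Oxali, at 191 and 193 in Combo200 and at 188 and 189 in Combo2000. The libraries with oxaliplatin all lay lower than the rest, but the fall was only 0.09 on the log2 scale (SE 0.04, adjusted p = 0.0262).

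**Figure D2:**
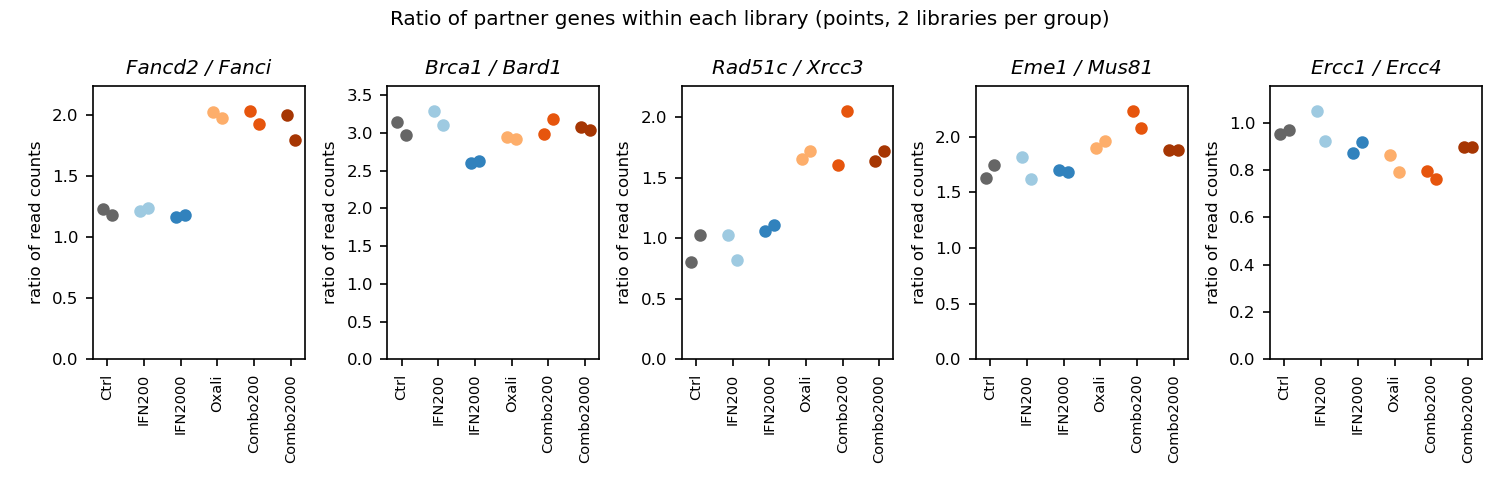
Ratio of the read counts of 5 gene pairs whose products work together, in each library (points, 2 per group). With oxaliplatin, Fancd2 to Fanci, Rad51c to Xrcc3 and Eme1 to Mus81 lie above all libraries without it, while Brca1 to Bard1 and Ercc1 to Ercc4 overlap. The share of other gene pairs that separate was not computed.

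Among the genes tied to structure-specific nucleases, Dclre1a and Eme1 rose and none of the 4 fell. Dclre1a (chr19:56529167-56548222) encodes an exonuclease that trims DNA past a crosslink after the first cut. It was measured in Ctrl at 26.6 and 24.7 CPM, in IFN200 at 25.9 and 26.3 and in IFN2000 at 23.9 and 25.6, and with oxaliplatin at 38.7 and 42.6 in Oxali, at 43.1 and 41.8 in Combo200 and at 39.9 and 42.8 in Combo2000. All libraries with oxaliplatin were well above the others, at a log2 change of 0.66 (SE 0.07, adjusted p = 1.48e-10), and the combinations gave 0.73 and 0.69 against Ctrl. Eme1, the partner subunit of the endonuclease Mus81, rose by 0.30 (log2; SE 0.06, adjusted p = 5.74e-05). Mus81 gave 0.10 in Oxali (adjusted p = 0.249) and among the comparisons with Ctrl was called only in Combo2000, at 0.20 (adjusted p = 0.018). It was at -0.04 and not called after the length and GC correction, which moved the median of all genes there to -0.14. The ratio of Eme1 to Mus81 counts was 1.62 to 1.82 without and 1.88 to 2.23 with oxaliplatin. Both genes overlap exons of neighbours on the opposite strand. Slx4, the scaffold that gathers these nucleases, was at 37.1 to 43.7 CPM in all libraries, with a log2 fold change of 0.04.

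Of the 4 translesion synthesis genes, Mad2l2 rose, Rev1 and Polh fell, and Rev3l was not called. Mad2l2 (chr4:148130384-148145699), a subunit of polymerase ζ, was measured in Ctrl at 42.9 and 43.8 CPM, in IFN200 at 42.8 and 39.9 and in IFN2000 at 44.2 and 43.5, and with oxaliplatin at 50.3 and 47.5 in Oxali, at 51.6 and 51.8 in Combo200 and at 54.7 and 55.8 in Combo2000. Each group with oxaliplatin lay above all groups without it, and Combo2000 lay highest. The log2 fold change was 0.17 in Oxali against Ctrl (SE 0.06, adjusted p = 0.00627), 0.25 in Combo200 and 0.35 in Combo2000. After the length and GC correction none of these was called, and the first was -0.06, where the median of all genes moved to -0.11. Rev1 (chr1:38052786-38129801), the polymerase that recruits the others, was measured in Ctrl at 32.7 and 32.2 CPM, in IFN200 at 31.1 and 34.7 and in IFN2000 at 35.3 and 35.0, and with oxaliplatin at 28.5 and 28.1 in Oxali, at 25.9 and 27.5 in Combo200 and at 25.7 and 25.3 in Combo2000. Its libraries with oxaliplatin were all below the rest, with a log2 change of -0.20 (SE 0.07, adjusted p = 0.00859), -0.28 in Combo200 and -0.35 in Combo2000. Polh, which copies past adducts within a strand, fell by 0.18 (log2; adjusted p = 0.0156). Rev3l, the catalytic subunit of polymerase ζ, gave 0.14 (SE 0.13, adjusted p = 0.372).

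Of 12 homologous recombination genes, 5 were higher in Oxali (Rad51b, Rad51c, Brca2, Bard1 and Brca1) and 3 lower (Rad51d, Xrcc3 and Blm), against 34.8% and 32.8% of all genes. The other 4 (Palb2, Brip1, Xrcc2 and Rad54l) were not called. The 5 genes Rad51b, Rad51c, Rad51d, Xrcc2 and Xrcc3, which encode related recombination proteins, went both ways. Rad51b (chr12:79297282-79814690) was measured in Ctrl at 8.68 and 9.07 CPM, in IFN200 at 9.51 and 8.26 and in IFN2000 at 9.29 and 8.21, and with oxaliplatin at 15.4 and 12.7 in Oxali, at 14.0 and 15.7 in Combo200 and at 13.6 and 15.5 in Combo2000. Libraries with oxaliplatin began at 12.7 CPM and those without ended at 9.51, and the log2 fold change was 0.67 (SE 0.11, adjusted p = 4.87e-06). Rad51c rose by 0.59 (SE 0.09, adjusted p = 1.34e-06). Rad51d (chr11:82876434-82890614) was measured in Ctrl at 35.4 and 35.1 CPM, in IFN200 at 34.0 and 33.1 and in IFN2000 at 34.2 and 32.9, and with oxaliplatin at 26.5 and 26.7 in Oxali, at 26.7 and 28.9 in Combo200 and at 25.0 and 27.1 in Combo2000. Here the libraries with oxaliplatin were the lower ones without exception, at a log2 change of -0.40 (SE 0.07, adjusted p = 1.83e-06). Xrcc3 fell by 0.29 (SE 0.10, adjusted p = 0.0129) and Xrcc2 gave 0.16 (adjusted p = 0.066).

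Rad51c and Xrcc3 form a dimer, and the ratio of their counts was 0.804 to 1.11 in the 6 libraries without oxaliplatin and 1.60 to 2.05 in the 6 with it. The exons of Xrcc3 overlap those of Klc1 on the opposite strand. Brca1 and Bard1, the partner subunits of a ubiquitin ligase that promotes end resection, rose together, by 0.18 (SE 0.04, adjusted p = 0.000356) and 0.23 (SE 0.06, adjusted p = 0.000776), and their count ratio overlapped between libraries with and without oxaliplatin. Brca2, which acts in strand exchange, gave 0.34 (SE 0.11, adjusted p = 0.0302) with 71.7 and 88.3 CPM in Oxali against 65.4 and 61.0 in Ctrl. The 2 Oxali libraries stood far apart, and Brca2 was no longer called when any 1 of 9 libraries was left out, the exceptions being both IFN2000 libraries and Oxali replicate 1. Blm, a helicase that dissolves recombination intermediates, fell by 0.25 (SE 0.05, adjusted p = 4.55e-05). Palb2, the bridge between Brca1 and Brca2, gave 0.17 (adjusted p = 0.0515).

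**Figure D3:**
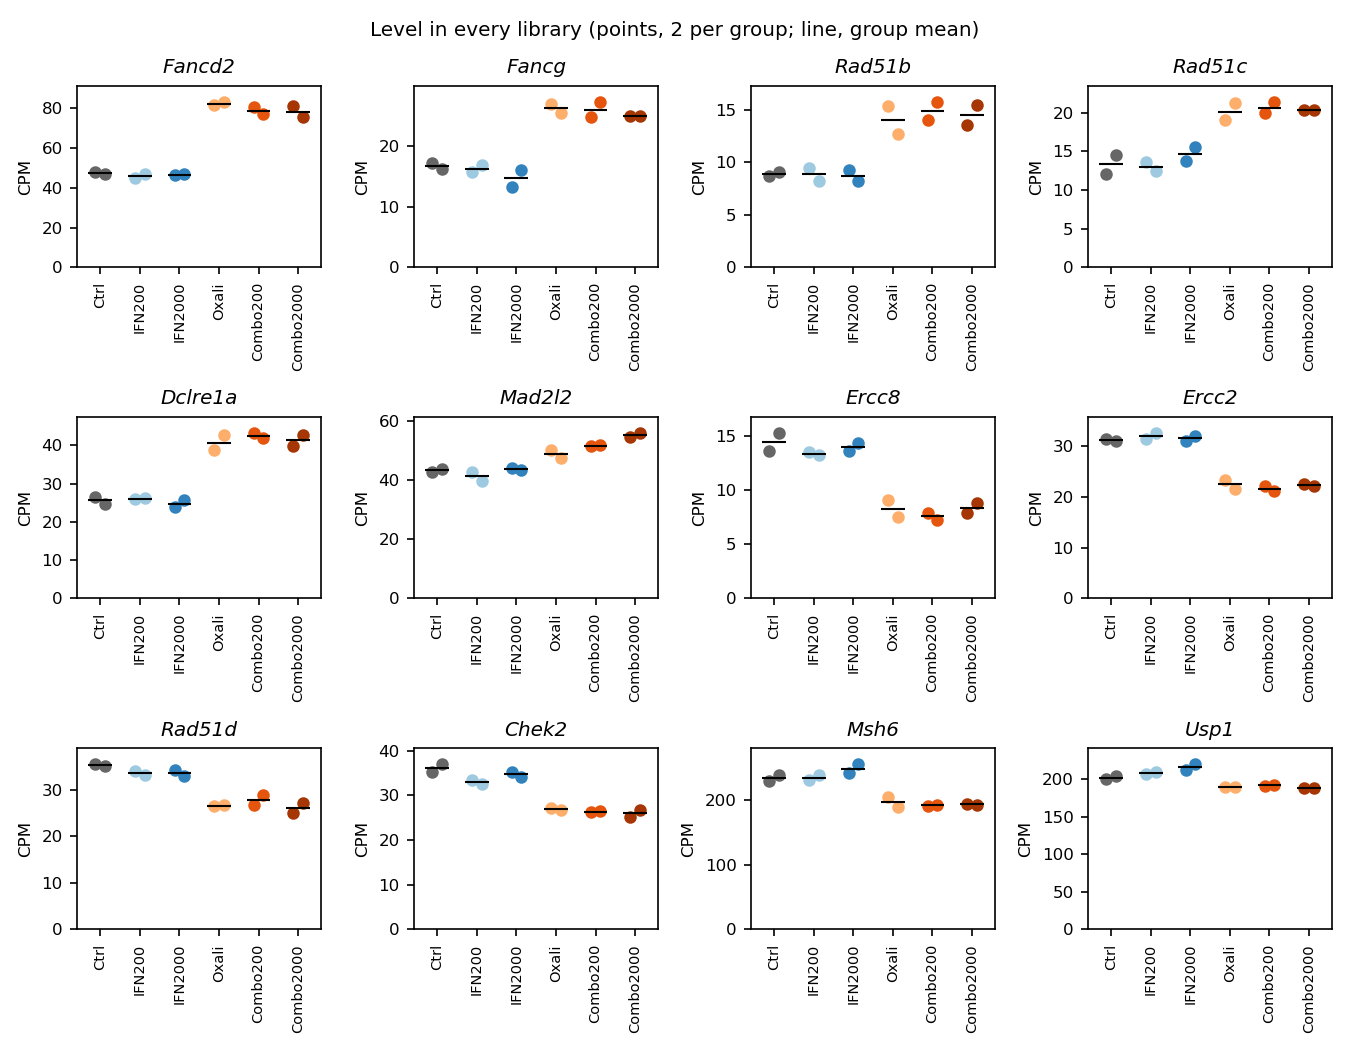
Level of 12 repair genes in CPM (axis from 0) in each library, as 2 points per group with a line at the group mean. Fancd2, Fancg, Rad51b, Rad51c, Dclre1a and Mad2l2 are higher and Ercc8, Ercc2, Rad51d, Chek2, Msh6 and Usp1 lower in all 6 libraries with oxaliplatin than in any of the 6 without.

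None of the 9 nucleotide excision repair genes rose with Oxali and 5 fell (Ercc8, Ercc5, Ercc2, Ercc3 and Rad23b), against 34.8% and 32.8% of all genes, and the median log2 fold change was -0.23, against 0.02 for all genes. Ercc8 (chr13:108158731-108195364), which acts in the repair of lesions that stall RNA polymerase, had the largest fall of the 48 genes. It was measured in Ctrl at 13.6 and 15.2 CPM, in IFN200 at 13.5 and 13.2 and in IFN2000 at 13.6 and 14.3, and with oxaliplatin at 9.07 and 7.49 in Oxali, at 7.89 and 7.23 in Combo200 and at 7.89 and 8.79 in Combo2000. The highest library with oxaliplatin, 9.07 CPM, lay below the lowest without, 13.2. The log2 fold change was -0.80 (SE 0.11, adjusted p = 6.58e-08) in Oxali, -0.93 in Combo200 and -0.79 in Combo2000 against Ctrl. Ercc6, its partner in transcription-coupled repair, gave 0.11 (SE 0.07, adjusted p = 0.169).

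The 2 helicases of the repair and transcription factor TFIIH, Ercc2 and Ercc3, fell by 0.48 (log2; SE 0.07, adjusted p = 1.95e-07) and 0.30 (SE 0.05, adjusted p = 3.41e-06). Both were lower in every library with oxaliplatin, with Ercc2 at 21.1 to 23.3 CPM against 30.9 to 32.4. Ercc5, the nuclease that cuts on the 3′ side of the lesion, fell by 0.57 (SE 0.08, adjusted p = 3.13e-07). Its level in IFN200, 22.0 and 24.3 CPM, and IFN2000, 22.5 and 23.3, was also under the 25.1 and 27.2 of Ctrl, though neither difference passed the test (adjusted p = 0.767 and 0.0926). The nuclease of the 5′ side, which also acts on crosslinks, is formed by Ercc1 and Ercc4. Ercc1 gave -0.15 (adjusted p = 0.0665) and among the comparisons with Ctrl was called only in Combo200, at -0.29 (adjusted p = 0.000428), and Ercc4 gave 0.07 (adjusted p = 0.361). Rad23b, part of the damage sensor and the most abundant of the 48 genes per length at 77.6 CPM per kb in Ctrl, fell by 0.23 (SE 0.03, adjusted p = 4.19e-07). Xpa, which checks the lesion, was at 4.14 to 6.29 CPM throughout, with a log2 change of -0.04 (SE 0.16).

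In mismatch repair, Msh6 fell and the other 2 genes were not called. Msh6 (chr17:87975062-87990892), a mismatch-binding protein, was measured in Ctrl at 230.0 and 239 CPM, in IFN200 at 231 and 238 and in IFN2000 at 242 and 255, and with oxaliplatin at 205 and 190.0 in Oxali, at 191 and 193 in Combo200 and at 194 and 193 in Combo2000. Libraries with oxaliplatin reached at most 205 CPM and those without at least 230.0, and the log2 fold change was -0.25 (SE 0.04, adjusted p = 1.77e-06). The exons of Msh6 overlap those of Fbxo11 on the opposite strand. Msh3, another mismatch-binding protein, gave 0.08 (adjusted p = 0.198), and Pms2, which cuts the strand to be replaced and shares exon sequence with Rsph10b on its own strand, gave 0.06 (adjusted p = 0.339).

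Of the checkpoint kinases only Chek2 was called in Oxali against Ctrl. Chek2 (chr5:110839979-110874145), the kinase activated by Atm, was measured in Ctrl at 35.2 and 36.9 CPM, in IFN200 at 33.5 and 32.6 and in IFN2000 at 35.2 and 34.2, and with oxaliplatin at 27.2 and 26.8 in Oxali, at 26.3 and 26.4 in Combo200 and at 25.2 and 26.7 in Combo2000. Again the 6 libraries with oxaliplatin were the lowest 6, and the log2 fold change was -0.42 (SE 0.06, adjusted p = 5.33e-07), with -0.45 and -0.48 in the combinations against Ctrl. Chek1, the kinase activated by Atr, gave -0.07 (adjusted p = 0.253), and Atr gave 0.06 (adjusted p = 0.337). Atm gave -0.19 (SE 0.10, adjusted p = 0.134). In Combo2000 against IFN2000, Atm (0.36, adjusted p = 0.0118) and Atr (0.12, adjusted p = 0.0328) were called higher, and after the length and GC correction Atr was -0.16 and called lower (adjusted p = 0.00204).

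To see whether the drug acted alike with IFNγ present, the effect of oxaliplatin was read in 3 comparisons that share no library, namely Oxali against Ctrl, Combo200 against IFN200 and Combo2000 against IFN2000. In Combo200 against IFN200, 15 repair genes were higher and 16 lower (background 36.3% and 33.4% of all genes, 69.8% together). In Combo2000 against IFN2000, 19 were higher and 15 lower (background 38.3% and 33.8%, 72.1% together). With RLE size factors these last counts were 13 and 16, with the length and GC correction 9 and 24, and without IFN2000 replicate 2, the library with leukocyte reads, 13 and 15. The count of higher genes was also 13 without IFN200 replicate 1, IFN200 replicate 2 or Combo2000 replicate 2.

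In all 3 comparisons, 11 genes were called higher (29.6% of all genes were) and 14 lower (27.0% of all). The 11 were Fancg, Fancm, Ube2t, Fancd2, Brca1, Bard1, Rad51b, Rad51c, Eme1, Dclre1a and Mad2l2. The 14 were Fancb, Fance, Usp1, Rad51d, Blm, Ercc2, Ercc3, Ercc5, Ercc8, Rad23b, Msh6, Rev1, Polh and Chek2. No gene was called in opposite directions, 42 of the 48 kept one sign, and 9 were called in none of the 3. The shares of all genes for these last counts were not computed, so the counts are not read as particular to the repair genes. The estimates for Fancd2 were 0.79, 0.78 and 0.75, and those for Ercc8 were -0.80, -0.82 and -0.74. Among the other members the estimates spread furthest for Fancf (0.84, 0.98 and 0.41) and Atm (-0.19, -0.07 and 0.36). With the length and GC correction, which lowered the median of all genes, Fancm and Mad2l2 were called higher in none of the 3. Brca1 was lost in Oxali against Ctrl, and Bard1 and Ube2t in Combo2000 against IFN2000, while the 14 lower genes kept every call.

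**Figure D4:**
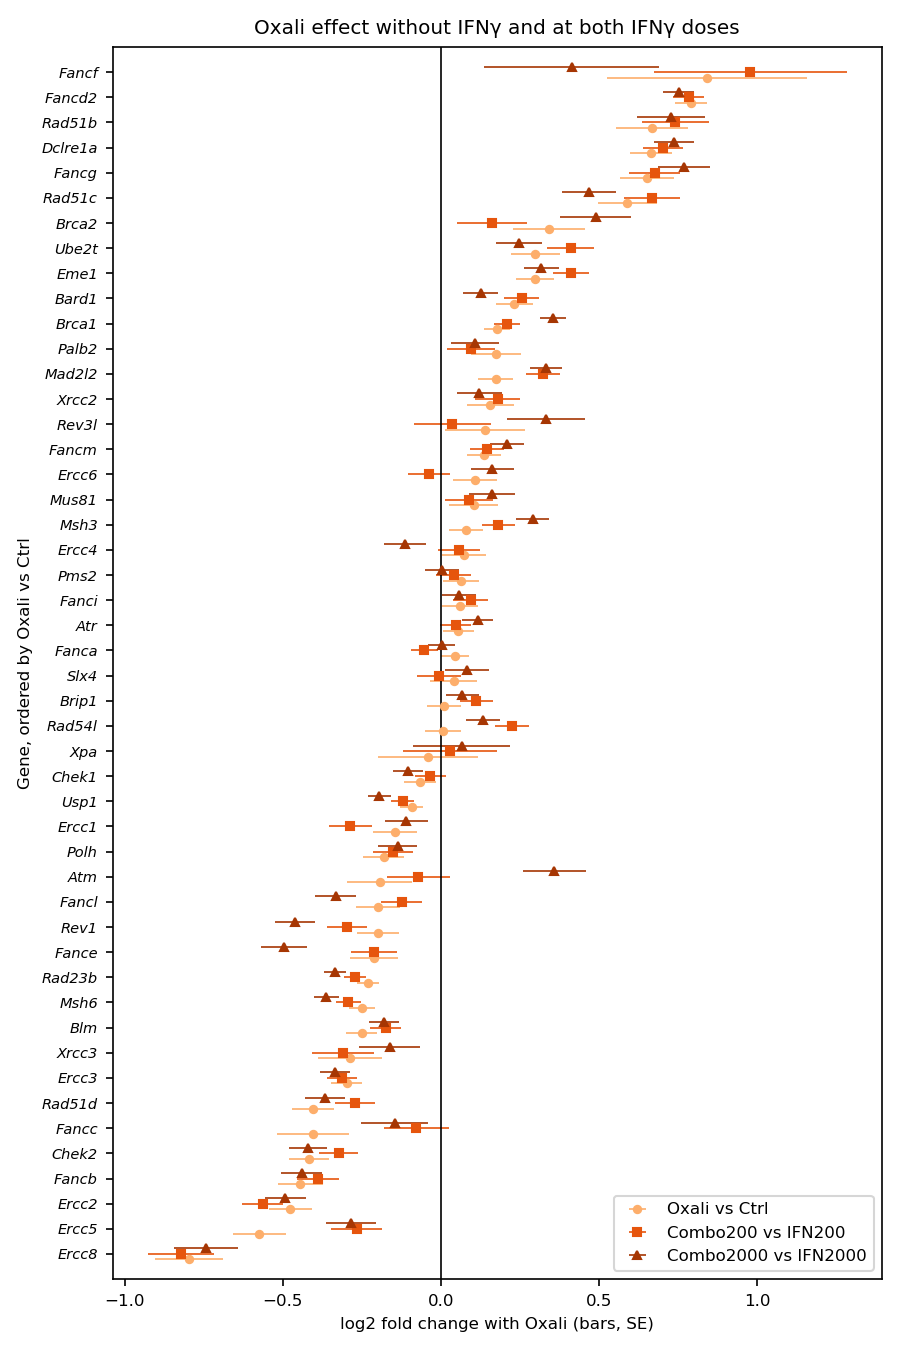
Log2 fold change with oxaliplatin (x axis, bars are SE) of the 48 repair genes, ordered by Oxali against Ctrl, in 3 comparisons that share no library: Oxali against Ctrl (circles), Combo200 against IFN200 (squares) and Combo2000 against IFN2000 (triangles). Fancd2 (0.75 to 0.79) and Ercc8 (-0.82 to -0.74) keep their place in all 3, while Atm and Fancf are spread.

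The combinations against Ctrl do not touch the conflicting labels. Combo200 raised 13 repair genes and lowered 15 (background 35.6% and 33.1%, 68.6% together), and Combo2000 raised 13 and lowered 17 (35.7% and 33.5%, 69.2% together). Under upper-quartile scaling the latter were 16 and 14, and with the length and GC correction 9 and 21 for Combo200 and, for Combo2000, 6 and 21. In nucleotide excision repair these comparisons gave 6 and 5 of 9 genes lower and none higher, Combo200 against IFN200 gave 6 lower and none higher, and Combo2000 against IFN2000 gave 5 lower and 1 higher (Ercc6, 0.16). Rad54l, a motor protein of homologous recombination, was called in Combo200 and in Combo2000 against Ctrl, at 0.19 (adjusted p = 0.00337) and 0.20 (adjusted p = 0.00146). It was 0.01 in Oxali against Ctrl, and with the length and GC correction it was lost in both combinations against Ctrl.

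The effect of IFNγ alone was small. No repair gene was called in IFN200 by edgeR, where 0.114% of all genes were higher and 0.0228% lower. At an unadjusted p under 0.05 there were 3 (Chek2, Ercc5 and Msh3), and DESeq2 called 0. In IFN2000, Rad23b rose and Fancm, Brca1 and Msh3 fell, where 9.14% of all genes were higher and 8.61% lower. Brca1, at 102 and 107 CPM against 115 and 118 in Ctrl, fell by 0.16 on the log2 scale (SE 0.04, adjusted p = 0.00841). Msh3, at 41.8 and 42.2 CPM against 48.1 and 50.4, fell by 0.23 (SE 0.06, adjusted p = 0.00344). Rad23b, at 488 and 484 CPM against 444 and 445, rose by 0.13 (SE 0.03, adjusted p = 0.00746).

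These 3 genes kept both IFN2000 libraries outside the range of Ctrl, as did Fancm, which fell by 0.16 (adjusted p = 0.0436). Fancm was no longer called with DESeq2, RLE size factors, upper-quartile scaling, only the groups compared or the replicate number as a block. Brca1 was also lost with DESeq2 and with the block, and Rad23b with the block. No IFN2000 change of a repair gene reached 0.5 on the log2 scale among called genes. The 3 genes that fell are long (Brca1 8.53, Fancm 10.4 and Msh3 11.3 kb of exon), and the log2 ratio to Ctrl of the 48 genes ran against exon length with a Spearman rho of -0.44 in IFN2000 replicate 2 and -0.16 in replicate 3, compared with 0.15 and 0.28 in IFN200 and 0.11 and 0.16 in Oxali (over the same 48 genes, which share each library). Over 13043 genes with a length, rho was -0.30 and -0.16 in the IFN2000 libraries. After the correction for length and GC content none of the 3 falls was called, the rise of Rad23b was, and rho between the IFN2000 change and length went from -0.36 to 0.05. Without IFN2000 replicate 2, 1 gene was higher (Rad23b) and 1 lower (Msh3), without IFN2000 replicate 3, 1 and 5, and without Ctrl replicate 2, 1 and 0. Without Ctrl replicate 1 no gene was higher and 2 were lower. The part of length in these falls was not tested beyond this.

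**Figure D5:**
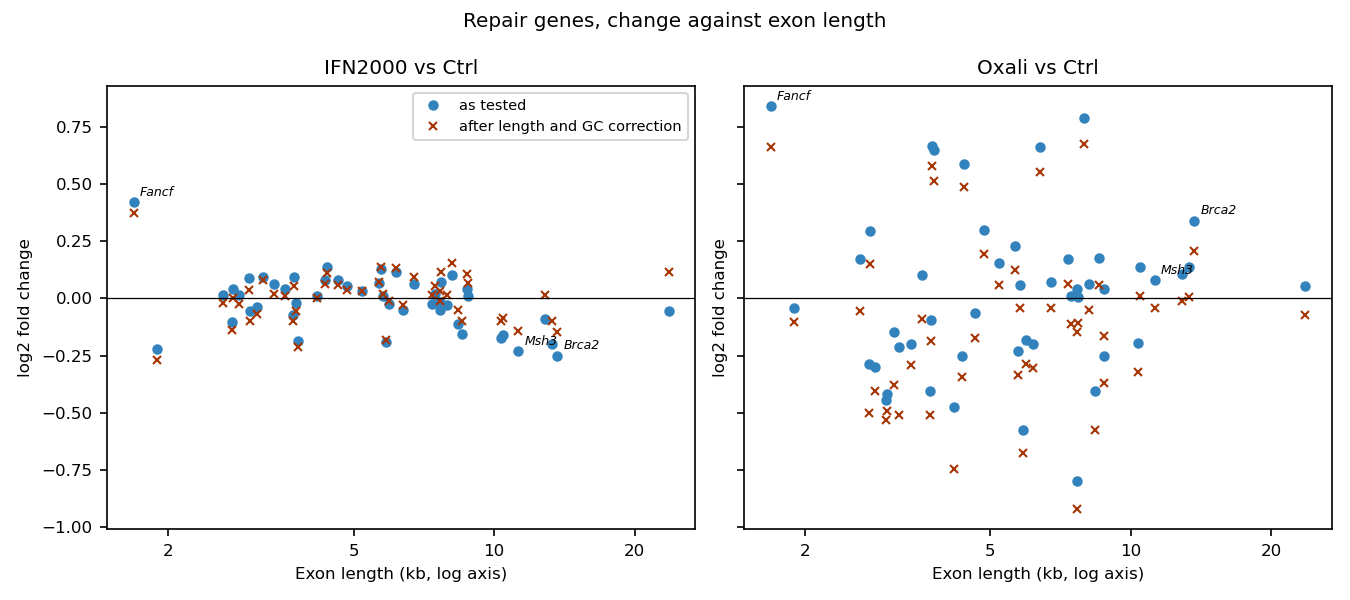
Log2 fold change of the 48 repair genes against exon length (kb, log axis) in IFN2000 and in Oxali against Ctrl, as tested (circles) and after correction for length and GC content (crosses). In IFN2000 the circles slope down toward long genes (rho -0.36) and the crosses do not (0.05), while in Oxali both sets are spread at every length and the crosses sit lower.

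Adding IFNγ to oxaliplatin changed few repair genes. None was called in Combo200 against Oxali by edgeR (background 1.87% higher and 0.288% lower, 2.16% together, 3 genes at an unadjusted p under 0.05, 0 by DESeq2). In Combo2000 against Oxali, Rad54l and Mad2l2 were higher and none lower (background 3.65% and 1.24%, 4.89% together). Rad54l (chr4:116094264-116123690) was measured in Ctrl at 46.5 and 52.7 CPM, in IFN200 at 48.0 and 48.7 and in IFN2000 at 52.3 and 52.0, and with oxaliplatin at 48.0 and 51.7 in Oxali, at 56.5 and 56.5 in Combo200 and at 57.0 and 57.4 in Combo2000. The Combo2000 libraries lay above both Oxali libraries and the log2 fold change was 0.20 (SE 0.05, adjusted p = 0.0226). Mad2l2 gave 0.17 (SE 0.05, adjusted p = 0.0387). Rad54l overlaps exons of Lrrc41 on the opposite strand. Neither gene was called by DESeq2 or without either Combo2000 library or Oxali replicate 1, and Mad2l2 was lost also without Combo200 replicate 3, either Ctrl library or Oxali replicate 2. Over 21 settings Rad54l was called in 16 and Mad2l2 in 8. Atm gave a larger value here, 0.38, that was not called by edgeR (adjusted p = 0.094) but was the gene called by DESeq2 (adjusted p = 0.000348), and it was called in 6 of the 21 settings.

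The interaction asks whether IFNγ changed a gene differently with oxaliplatin present than without. No repair gene was called at 200 pg (background 0.835% and 0.152%, 0.987% together, 3 genes at an unadjusted p under 0.05, 0 by DESeq2) or at 2000 pg (2.69% and 0.979%, 3.67% together, 8 genes, 1 by DESeq2). The gene called by DESeq2 was Atm, singled out here after its values were seen. Atm (chr9:53439149-53536740), the kinase that answers double-strand breaks, was measured in Ctrl at 95.4 and 88.1 CPM, in IFN200 at 95.4 and 95.1 and in IFN2000 at 74.4 and 88.6, and with oxaliplatin at 77.0 and 83.4 in Oxali, at 90.7 and 90.5 in Combo200 and at 112 and 96.0 in Combo2000. The lowest value was IFN2000 replicate 2 and the highest Combo2000 replicate 2, and each stood apart from its partner. The interaction was 0.55 on the log2 scale (SE 0.14, adjusted p = 0.0934 in edgeR and 0.000579 in DESeq2), ranged from 0.42 to 0.66 over 21 settings and was called in 5 of them. It was called without IFN2000 replicate 3 (0.66) but not without IFN2000 replicate 2 (0.42, adjusted p = 0.0862), and without Combo2000 replicate 3 (0.66) but not without Combo2000 replicate 2 (0.43, adjusted p = 0.0741). Brca1 joined it without IFN2000 replicate 3 (adjusted p = 0.0341).

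Levels per length placed the 48 genes near the typical gene of the cells. Their median in Ctrl was 5.55 CPM per kb of exon, against 6.3 for all genes with a length. Rad23b led, followed by Usp1 at 54.2 CPM per kb, Msh6 at 54.0 and Ercc3 at 27.2. The lowest were Fancf at 0.496 CPM per kb, Fancc at 1.22 and Ercc8 at 1.88. Usp1 and Msh6 did not differ in this level beyond the spread of the 2 Ctrl libraries.

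Other genes of these pathways were read from wider lists, and some moved further than any of the 48. The counts below stand against 34.8% of all genes higher and 32.8% lower in Oxali against Ctrl. Of 8 further Fanconi pathway genes none was higher in Oxali and 5 were lower, led by the nuclease subunit Slx1b (log2 fold change -0.63) and Faap20 (-0.40), a partner of the core complex. Of 22 further recombination genes 9 were higher and 3 lower, among them the helicase Recql (0.88), the resection nuclease Dna2 (-1.39) and Uimc1 (-0.73), which holds Brca1 at ubiquitin marks. Of 15 further nucleotide excision repair genes 5 were higher and 9 lower. Uvssa, which works with Ercc6 and Ercc8, rose by 0.97 and Mnat1, a TFIIH-associated kinase subunit, by 0.81, whereas Cetn2 (-0.57) of the damage sensor and Gtf2h4 (-0.46) of TFIIH fell.

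Of 8 further translesion genes 4 were higher and 3 lower, led by the polymerases Polk (1.02) and Primpol (0.79), with Shprh (-0.53) and Hltf (-0.36), which modify the sliding clamp, lower. Of 4 further mismatch repair genes only Pms1 (-0.60) was called, lower. Of 14 further checkpoint genes 3 were higher and 5 lower, including Clspn (0.35) and Wee1 (0.33), and Hus1 (-0.62) and Tipin (-0.40). Many repair genes follow the cell cycle, so replication and mitosis lists were read beside them. Of 22 replication genes 7 were higher and 9 lower in Oxali (median log2 fold change -0.03), and of 18 mitosis genes 6 were higher and 7 lower (median 0.00). Their summed levels were 4870.0 to 5070.0 and 4700.0 to 4900.0 CPM with oxaliplatin, against 5000.0 to 5660.0 and 4650.0 to 4820.0 without, and their part in the changes of the repair genes was not tested.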

How the data were processed

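Raw read counts per gene symbol were deposited by the authors for 12 poly(A) RNA libraries made with a stranded kit. STAR (2.7.3a in the submitters' processing notes, which also name RSEM 1.3.0) was used for alignment to GRCm38, and the study's methods name featureCounts for counting. The strand setting was not given in the sources used here, so reads of genes that overlap on opposite strands could be mixed. Symbols were placed with a GENCODE annotation of GRCm38, which held 53559 of 55216, and promoters were taken from RefSeq.

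After filterByExpr (minimum count 10, minimum total 15), a quasi-likelihood model with TMM factors and robust fits was made in edgeR 4.0.16 (R 4.3.3). All 12 libraries entered it, with group as the only term, and p-values were adjusted by Benjamini-Hochberg over 13177 genes in each of 11 contrasts. SE was derived from the F statistic. At these depths 3 counts, the upper limit for a gene read 0 times, correspond to 0.111 to 0.167 CPM, for counting error only. No library was a copy of its partner (chi-square per degree of freedom 1.71 to 9.15). Alternatives were DESeq2 1.42.0, RLE and upper-quartile scaling, no filter, a mean of 50 counts, only the groups compared, a replicate block, a spline correction for length and GC content, and leaving out each library. The code was tested on simulated data. Members and lists were chosen with earlier results of these data known. Values per library were given for the largest called rise and fall of each subgroup with Oxali, for IFNγ changes of at least 0.5 (log2) and for genes called between combinations and Oxali or in an interaction, and from each wider list up to 2 called genes per direction were named. Python 3.11.15, pandas 2.3.3 and matplotlib 3.10.9 were used. Some genes named by these rules are not reported here.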

Additional observations from a re-analysis of the deposited data

How the results depend on the processing

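Counts of repair genes called are given as higher and lower. In IFN2000 against Ctrl (1 and 3), 1 was lower with DESeq2, 0 with the length and GC correction and 5 without a filter on low counts, 2 were higher with RLE size factors or upper-quartile scaling, and leaving out 1 library gave 0 to 1 higher and 0 to 5 lower. In Combo2000 against Oxali (2 and 0), DESeq2, RLE size factors, upper-quartile scaling and only the groups compared each gave 1 higher (Atm with DESeq2, Rad54l with the others), and leaving out 1 library 0 to 3. In Combo200 against Oxali (0 and 0), no filter and only the groups compared each gave 2 higher. In the interaction at 2000 pg (0 and 0), DESeq2 and no filter each gave 1 higher, the length and GC correction 1 higher and 2 lower, and leaving out 1 library 0 to 2 higher. In Combo2000 against IFN2000 (19 and 15), only the groups compared gave 12 higher, the length and GC correction 9 higher and 24 lower, and leaving out 1 library 13 to 19 higher and 14 to 16 lower. In Combo2000 against Ctrl (13 and 17) the length and GC correction gave 6 higher, and leaving out 1 library 10 to 14 higher. For Oxali against Ctrl leaving out 1 library gave 9 to 14 higher and 13 to 18 lower. The length and GC correction moved the median of all genes to -0.11 in Oxali against Ctrl, -0.14 in Combo2000 against Ctrl and -0.13 in Combo2000 against IFN2000. With this shift it turned the sign of Mad2l2 in Oxali against Ctrl (-0.0555), Mus81 in Combo2000 against Ctrl (-0.0397), and in Combo2000 against IFN2000 Atr (-0.16, adjusted p = 0.00204), Bard1 (-0.0219), Ercc6 (-0.0677), Fancm (-0.0048), Mus81 (-0.0499) and Rad54l (-0.0493), of which Atr lay below the shifted median. The replicate numbers did not pair the libraries (21 pairs of same-numbered libraries had r between -0.046 and 0.045). With the replicate number as a block, IFN2000 against Ctrl gave 0 higher and 1 lower and Combo2000 against Oxali 0 higher. Over single genes and settings, 2900 values kept direction and call, 268 kept direction but lost the call and 8 reversed. The causes were not tested. A lone remaining library was assumed to vary like the other groups. The lowest gene, Fancf, was left out where a mean of 50 counts was required.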

Other observations

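Genes of other repair pathways were read in Oxali against Ctrl (edgeR quasi-likelihood test), where 34.8% of all genes were higher and 32.8% lower. Of 16 base excision repair genes that passed the filter, 8 were lower and 4 higher, with a median log2 fold change of -0.23 against 0.02 for all genes. The glycosylases Ung, which removes uracil from DNA, and Tdg, which removes thymine from mismatches, had the largest falls, -1.48 (SE 0.08, adjusted p = 4.29e-18) and -1.12 (SE 0.10, adjusted p = 3.14e-12). The polymerase Polb rose by 0.37 (SE 0.07) and the scaffold Xrcc1 by 0.31 (SE 0.05). Of 13 end-joining genes 6 were lower and 4 higher, with a median of -0.12. The DNA ligase Lig3 fell by 1.00 on the log2 scale (SE 0.04, adjusted p = 1.09e-19) and the end-binding subunit Xrcc6 by 0.51 (SE 0.05), while Xrcc4 rose by 0.41 (SE 0.10) and the nuclease Dclre1c by 0.39 (SE 0.11). Against the same Ctrl libraries, Combo2000 lowered 7 and raised 4 of the base excision genes and lowered 5 and raised 2 of the end-joining genes.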
